A study of Mus musculus with 13 samples.

Results

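A set of 41 DNA repair genes, chosen by name as members of the main repair pathways, was described in aorta and gastrocnemius muscle of old mice, out of 19838 genes measured in each library. The 13 libraries came from mice aged 88 weeks of the strain FVBxC57BL/6. The group called dNdK (genotype GFP-FOXM1dNdKtg/+Rosa26-rtTAtg/+) carried a GFP-tagged FOXM1 transgene, and gave 2 aorta and 3 muscle libraries. The group called Rosa26 (genotype GFP-FOXM1dNdK-/-Rosa26-rtTAtg/+) carried no such transgene, and gave 4 aorta and 4 muscle libraries. Both groups carried Rosa26-rtTA, a reverse tetracycline transactivator placed at a broadly active locus, and the labels used here name neither the sex of the animals nor a doxycycline treatment. The title of the series concerns delayed ageing with increased FOXM1, a transcription factor of dividing cells, and the design implied comparisons of genotype within each tissue and of tissue within each genotype.

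DNA repair works through several pathways that meet different lesions. Homologous recombination copies an undamaged sister strand, depends on BRCA1 and BRCA2, and runs mainly in dividing cells, as does the Fanconi pathway for crosslinks between strands. End joining seals double-strand breaks in dividing and resting cells alike, and begins when the Ku ring of XRCC5 and XRCC6 slides onto the ends. Base excision and single-strand break repair replace small oxidised, alkylated or deaminated bases, nucleotide excision removes bulky adducts, and replication protein A coats the single strands that several pathways expose. Muscle fibres are long-lived cells that no longer divide. FOXM1 has been described as an activator of Xrcc1, Brca2, Exo1 and Nbn in other cells.

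Levels are counts divided by the library total (CPM), with the totals scaled between libraries by the trimmed mean of M-values (TMM). The assay reads 1 amplicon per targeted transcript, so levels of different genes cannot be compared with each other, and only the same gene is compared across libraries. Libraries held 3919526 to 13683952 gene counts, and a count of 3 was taken as the floor of detection. Aorta Rosa26 4 had the fewest counts, and its floor was 0.641 CPM, against 0.165 to 0.276 CPM in the other aorta libraries. Its low or 0 counts in genes near the floor thus cannot tell a low level from low depth. Replicates are numbered libraries of a group, and nothing in the labels says that each came from a separate animal, so p-values measure the spread between these libraries.

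The libraries held RNA of more than 1 tissue. The aorta libraries had a Ucp1 level, a marker of brown fat, of 3762 to 6991 CPM, while the smooth muscle marker Myh11 spanned 51.6 to 83.0 CPM in aorta and 30.3 to 85.6 CPM in muscle. The smooth muscle marker Tagln was at 0 counts in 5 of the 6 aorta libraries and in 6 of the 7 muscle libraries, which cannot tell absent RNA from an unread amplicon. Acta2, another such marker, spanned 65.9 to 247.5 CPM in aorta and 49.55 to 138.9 CPM in muscle. Of 9 smooth muscle markers tested between Rosa26 tissues, 3 were called higher and 3 lower in aorta (66.7%, against 58.4% of all genes). The heart myosin Myh6 stood at 553 CPM in aorta dNdK 2, 654 CPM in aorta Rosa26 1 and 268 CPM in aorta Rosa26 2, and at 1.46 CPM or less in the other aorta libraries. Muscle libraries had the fast myosin Myh4 at 33290.0 to 59600.0 CPM, and muscle dNdK 3 also had Ucp1 at 756 CPM. A difference between aorta and muscle below is thus one between these mixtures of cells, and in such bulk samples fewer cells of a type and less RNA per cell cannot be told apart. Foxm1 itself lay between 0 and 1.32 CPM in all 13 libraries, and the mouse amplicon does not check the transgene.

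Between tissues of Rosa26 mice, 11 of the DNA repair genes were lower in aorta than in muscle and 2 were higher. The lower ones were Xrcc5, Rpa1 and Rpa2, the base excision genes Polb, Lig3, Ung and Parp1, and Xrcc2, Pms2, Ercc2 and Trp53bp1, by 1.87-fold for Parp1 to 6.83-fold for Xrcc5. The higher ones were Wrn (2.59-fold) and Rpa3 (1.71-fold). The test was the edgeR quasi-likelihood test with Benjamini-Hochberg adjustment at 0.05, and 31 of the 41 genes had enough counts to enter it. The 13 calls made up 41.9% of the 31, against a background of 58.4% called among all 11058 genes tested, so that the count by itself says nothing particular about repair genes. The median log2 fold change was -0.40 over the 31 genes and 0.08 over all genes tested. The estimate was negative for 24 of the 31, against 47.6% of all genes, and positive for 7, against 52.4%. In 12 genes all aorta libraries lay below all muscle libraries and in 1 above, against 25.9% and 26.9% of all genes. By direction, 27.5% of all genes were called lower and 31% higher, and 15 of the 31 members had an unadjusted p under 0.05, against 62.5% of all genes. The 10 members under the count filter each had a higher mean level in Rosa26 aorta than in Rosa26 muscle, so these shares describe only the genes kept. Without the filter, 5 repair genes were called higher and 11 lower (31.2% of calls higher, against 53.5% over all genes). The median log2 fold change was then -0.21 for repair genes and 0.27 for all genes. With plain library sizes in place of TMM, the median of all genes moved to 0.96 and that of the repair genes to 0.47, and the calls became 5 lower and 10 higher. The 5 genes lower under both scalings were Xrcc5, Rpa2, Rpa1, Lig3 and Polb, and Wrn and Rpa3 were higher under both. The 8 genes called higher with plain library sizes and not with TMM were Msh6, Atr, Xrcc6, Parp2, Nbn, Rad50, Ogg1 and Xpc, with log2 fold changes from 0.65 for Ogg1 to 1.53 for Msh6, and the last 4 of them had estimates below 0 with TMM.

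**Figure D1:**
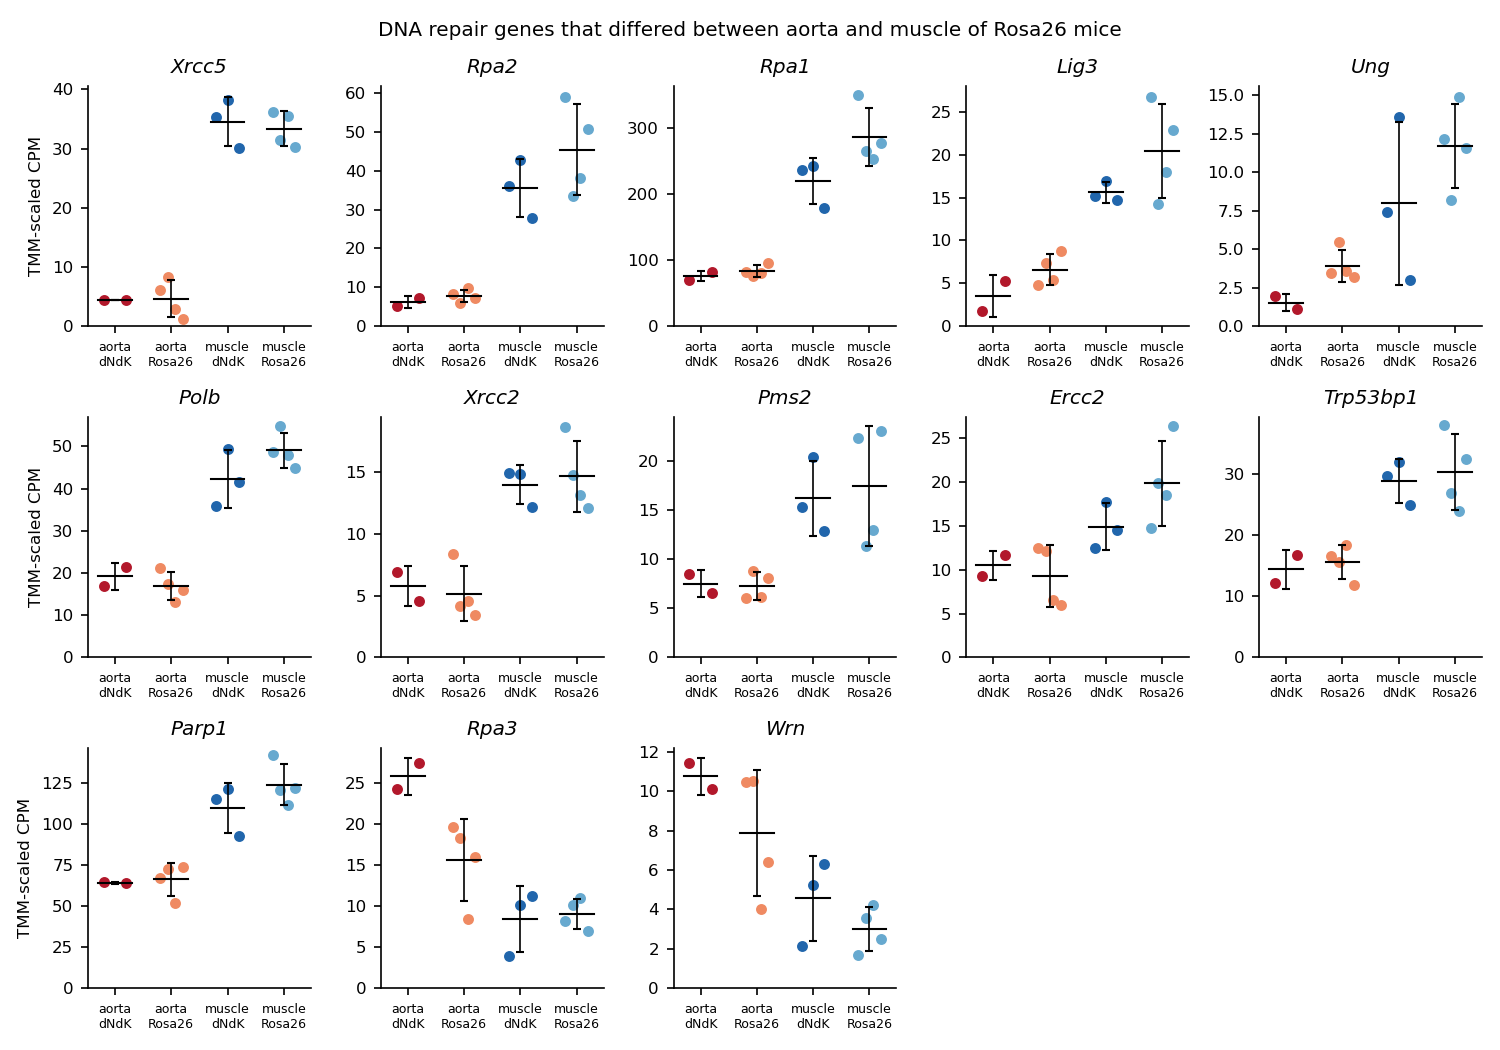
Levels of the 13 DNA repair genes that differed between aorta and muscle of Rosa26 mice, in TMM-scaled CPM on the vertical axes, with 1 point per library, a line at the group mean and bars for 1 SD. Xrcc5, Rpa1, Rpa2, Polb and Lig3 sit lower in each of the 6 aorta libraries than in any of the 7 muscle libraries, while Wrn and Rpa3 are high in both aorta dNdK libraries.

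The dNdK tissues share no library with the Rosa26 tissues and gave the same direction for each of the 13 genes. There, 33 repair genes were tested and 5 were lower in aorta (Xrcc5, Rpa2, Rpa1, Lig3 and Polb) and none higher, which is 15.2% against 15.8% of all 11426 genes tested (10.5% lower and 5.22% higher). The estimate was negative for 23 of the 33, against 50.4% of all genes, and positive for 10, against 49.6%. In 12 genes all aorta libraries lay below all muscle libraries and in 4 above, against 29.4% and 28.5%. Of the 13 genes, 12 had an unadjusted p under 0.05 in dNdK, the exception being Ercc2, and 12 of all 33 members tested did, against 35% of all genes. The 13 were picked by their Rosa26 calls. How often all genes called in Rosa26 kept direction or a small p in dNdK was not computed, so neither count says anything particular about repair genes. With only 2 aorta libraries these calls rested on few samples: leaving out either aorta library left 1 repair gene called, leaving out muscle dNdK 2 left 2, and leaving out muscle dNdK 3, the library with fat RNA, gave 11. Xrcc5 was called in each of the 12 alternative fits of the dNdK tissues.

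**Figure D2:**
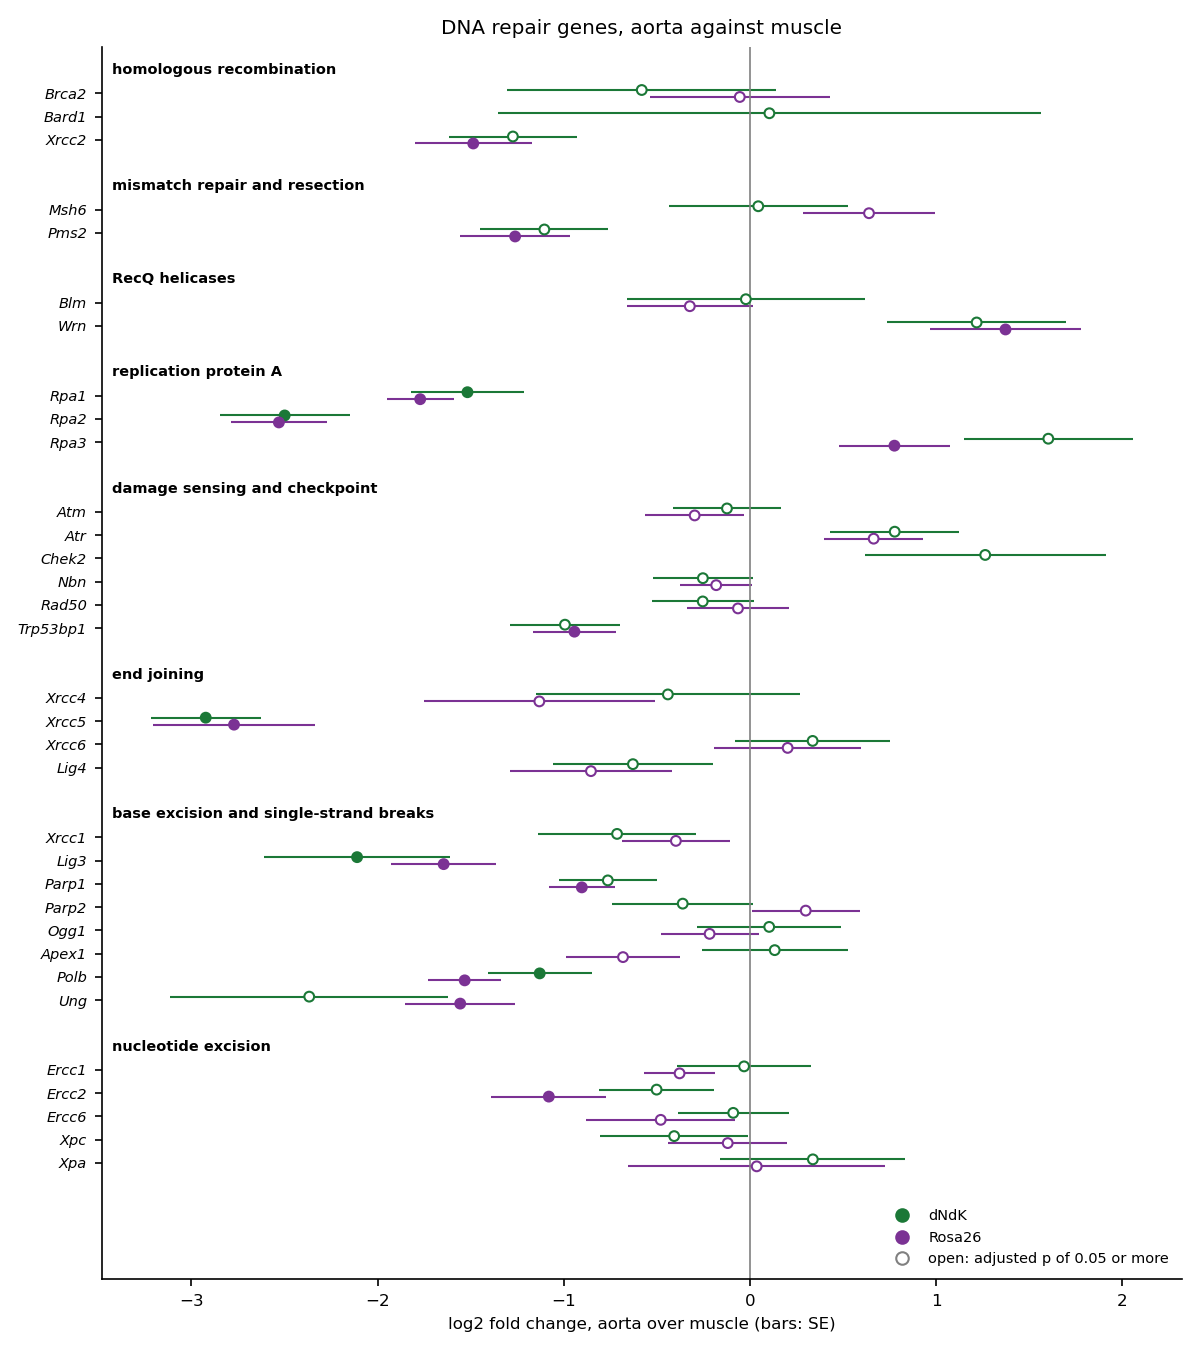
Log2 fold change of aorta over muscle for each DNA repair gene tested, ordered by pathway, in dNdK and in Rosa26 mice, with bars for 1 SE and filled points where the adjusted p was under 0.05. The filled points are 5 in dNdK and 13 in Rosa26, and the replication protein A genes lie on both sides of 0.

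Between genotypes no repair gene passed the test in either tissue. In aorta 0 of 37 tested genes passed, against 1 of all 11920 genes (0.00839%), and 3 had an unadjusted p under 0.05 (Fanca, Ung and Rad51ap1), against 5.98% of all genes. Fanca, Rad51ap1, Brca1 and Chek1 passed the count filter through their Rosa26 libraries alone, so the filter favoured a lower dNdK value for them. In muscle 0 of 31 passed, against 0% of all 10491 genes, and 0 of 31 had an unadjusted p under 0.05, against 7.55% of all genes. DESeq2 likewise called 0 repair genes in either tissue, as did each alternative fit. The median log2 fold change of dNdK over Rosa26 was 0.02 in aorta and -0.05 in muscle, with -0.05 and 0.03 over all genes. In aorta 3 repair genes were higher and 2 lower in both dNdK libraries than in any Rosa26 library, against 9.19% and 8.24% of all genes, and in muscle 0 were higher and 1 lower, against 2.75% and 3.21%. The median SE of a log2 fold change was 0.42 in aorta and 0.32 in muscle, so that these libraries left room for sizeable differences in single genes.

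**Figure D3:**
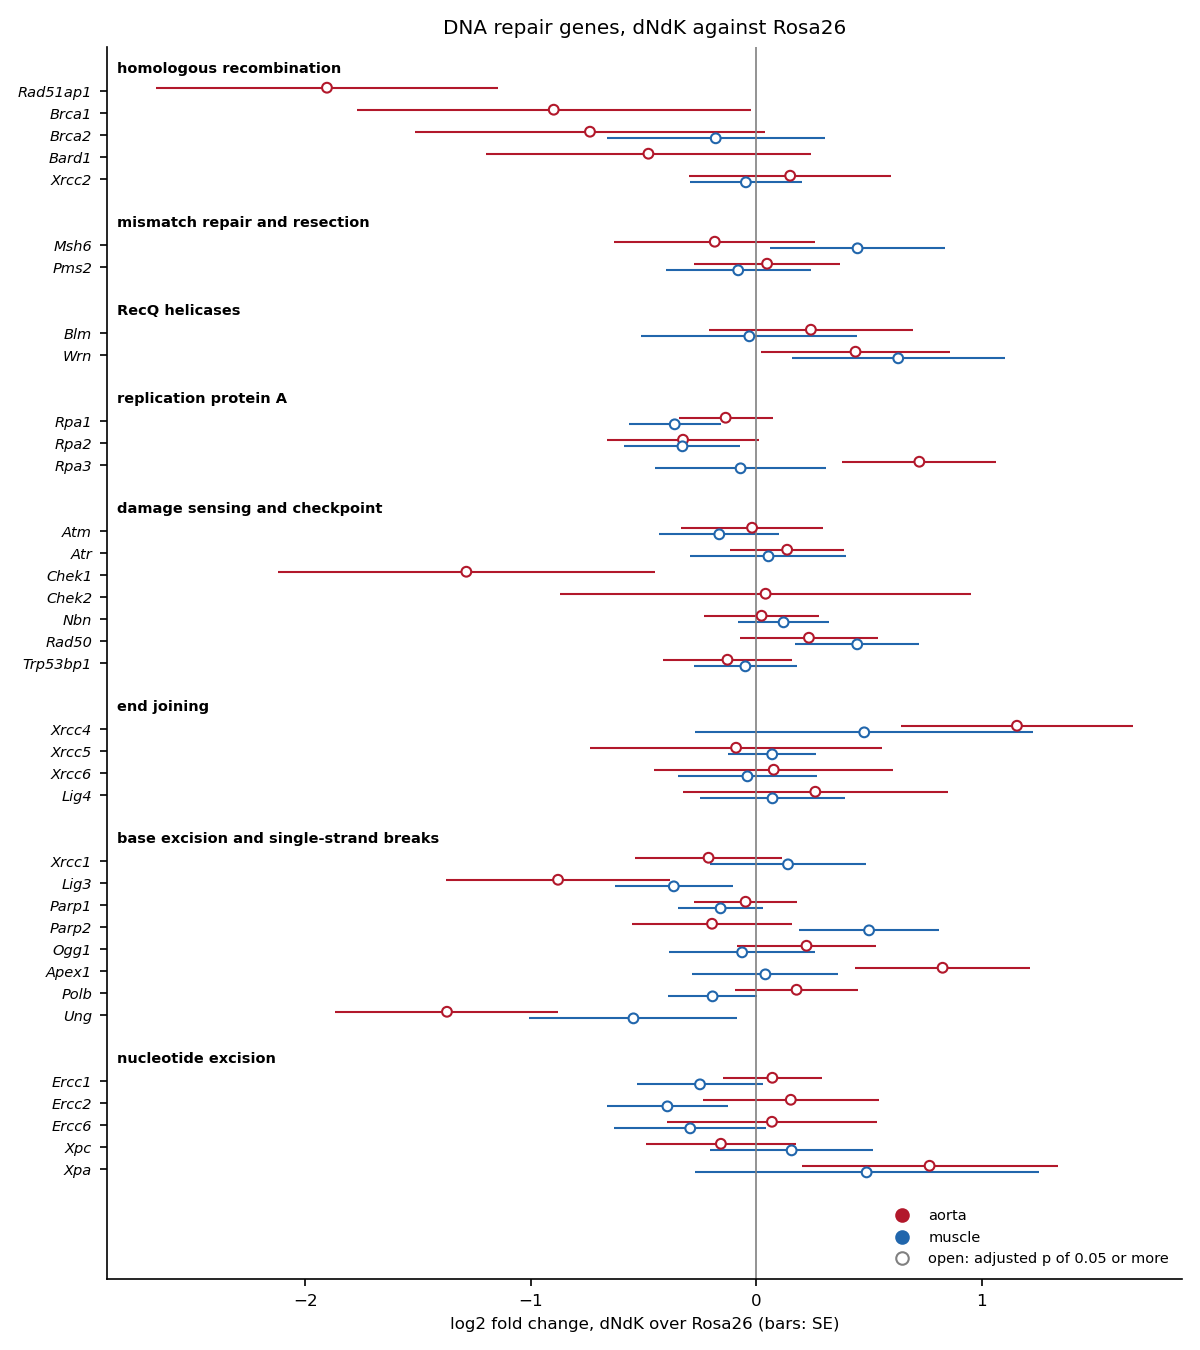
Log2 fold change of dNdK over Rosa26 for each DNA repair gene tested, ordered by pathway, in aorta and in muscle, with bars for 1 SE. All points are open, since none reached an adjusted p under 0.05, and Fanca, which had no count in aorta dNdK, is not drawn.

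Homologous recombination was represented by 6 genes, of which 2 were tested between Rosa26 tissues and 1 passed (50%, against 58.4% of all genes). Xrcc2, which takes part in strand exchange, was the only one of them past the test between tissues. It stood at 6.91 and 4.60 CPM in dNdK and 8.40, 4.12, 4.60 and 3.417 CPM in Rosa26 aorta. Muscle had 14.97, 14.8 and 12.1 CPM in dNdK and 18.7, 14.8, 13.1 and 12.1 CPM in Rosa26. All 6 aorta libraries lay below all 7 muscle libraries, and the gene was 2.80-fold lower in aorta of Rosa26 mice (log2 fold change -1.49, SE 0.31, edgeR adjusted p = 0.00226). In dNdK mice the log2 fold change was -1.27 (SE 0.34, edgeR adjusted p = 0.054). With plain library sizes the Rosa26 value was -0.60 and no longer passed (edgeR adjusted p = 0.131).

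Brca2, which loads the recombination machinery on the resected end, had 6 and 17 counts in dNdK and 24, 47, 16 and 2 counts in Rosa26 aorta, and 4, 10 and 27 counts in dNdK and 9, 15, 13 and 15 counts in Rosa26 muscle. In CPM that was 0.552 and 1.28 in dNdK aorta, 1.77, 2.58, 1.12 and 0.427 in Rosa26 aorta, 0.778, 1.17 and 2.13 in dNdK muscle and 1.68, 1.67, 1.27 and 1.89 in Rosa26 muscle. The groups overlapped throughout, with a log2 fold change of dNdK over Rosa26 of -0.74 (SE 0.77) in aorta and -0.18 (SE 0.48) in muscle. Its promoter is shown because it is the member of the recombination and Fanconi groups that was tested between tissues in both genotypes and has an entry in the RefSeq promoter table of GRCm38.p6, from 250 bases before to 50 after the transcription start. Capitals mark an E2F word on either strand (TTTCCCGC, TTTCGCGC, TTTGCCGC or TTTGGCGC), a CHR word (TTTGAA or TTCGAA) or CCAAT, motifs found in many cell cycle promoters. The promoter, at chr5:150522371-150522670 on the plus strand, holds 1 match, an E2F word on the reverse strand that starts 168 bases before the start site.
Brca2: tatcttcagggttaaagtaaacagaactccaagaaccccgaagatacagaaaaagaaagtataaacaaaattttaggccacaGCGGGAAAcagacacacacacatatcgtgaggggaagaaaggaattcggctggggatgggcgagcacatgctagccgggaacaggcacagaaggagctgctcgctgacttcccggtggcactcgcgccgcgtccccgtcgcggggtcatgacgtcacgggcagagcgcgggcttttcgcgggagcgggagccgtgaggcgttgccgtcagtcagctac

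The other 4 recombination genes were low. Rad51ap1, which helps broken ends to pair with the intact strand, had 3 and 3 counts in dNdK aorta and 19, 15, 13 and 3 counts in Rosa26 aorta. That was 0.276 and 0.226 CPM in dNdK and 1.40, 0.824, 0.906 and 0.641 CPM in Rosa26 aorta, with no overlap (log2 fold change -1.90, SE 0.76, unadjusted p = 0.036, edgeR adjusted p = 0.757). The value rests on counts at the floor in both dNdK libraries and in 1 Rosa26 library. Rad51ap1 passed the count filter in aorta through its Rosa26 libraries alone. In muscle this gene had 1, 5 and 2 counts in dNdK and 5, 3, 5 and 1 counts in Rosa26 libraries, too few for the test.

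Brca1 and Bard1 encode partners in 1 ubiquitin ligase that acts at resected ends. Brca1 had 7 and 8 counts in dNdK and 8, 29, 29 and 1 counts in Rosa26 aorta, with a log2 fold change of -0.90 (SE 0.87). Like Rad51ap1, it passed the count filter in aorta through its Rosa26 libraries alone. Across the 7 muscle libraries it had 4 counts in all, 2 in dNdK and 2 in Rosa26. Its pooled level in Rosa26 aorta was 21.4-fold that in Rosa26 muscle (95% counting interval 5.71 to 181), and in dNdK mice the ratio was 8.20 (1.91 to 73.9). Bard1 had 5 and 14 counts in dNdK and 13, 20, 23 and 2 counts in Rosa26 aorta, and 12, 0 and 2 counts in dNdK and 0, 0, 3 and 2 counts in Rosa26 muscle. Muscle dNdK 1 thus held most of its muscle counts. Xrcc3, a relative of Xrcc2, had 3 counts in aorta Rosa26 1 and 0 in every other library.

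The Fanconi genes were at or near the floor. Fanca, a subunit of the core complex that marks crosslinked DNA, had 0 counts in both dNdK aorta libraries and 9, 19, 13 and 0 counts in Rosa26 aorta. Against a floor of 3 counts over the dNdK group, its pooled level was at least 6.49-fold lower in dNdK. This bound covers counting error only and leaves out the spread between libraries. Aorta Rosa26 4, the library with the fewest gene counts, also had 0 counts of Fanca. The edgeR log2 fold change of Fanca, which rests on 0 counts in dNdK, was -6.17 (SE 1.94, unadjusted p = 0.0149, edgeR adjusted p = 0.757). Fanci, part of the complex that the core complex marks, had 0 counts in dNdK and 9, 11, 4 and 0 counts in Rosa26 aorta. By the same kind of bound, the pooled level of Fanci was at least 3.80-fold lower in dNdK. Fancd2, the partner of Fanci, had 5 and 0 counts in dNdK and 9, 10, 2 and 0 counts in Rosa26 aorta. In muscle the 3 genes had 0 to 3 counts in each dNdK library and 0 to 4 counts in each Rosa26 library. These 3 genes overlap other measured genes on the genome (Zfp276 for Fanca, Polg for Fanci and Fancd2os for Fancd2), and the counting did not use strand.

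Rad51ap1 is the recombination gene with the smallest unadjusted p between genotypes, and its promoter, on the minus strand at chr6:126939538-126939837, was chosen for print after its values were seen. It holds CCAAT words on the reverse strand at 230 and 36 bases before the start site, and no E2F or CHR word.
Rad51ap1: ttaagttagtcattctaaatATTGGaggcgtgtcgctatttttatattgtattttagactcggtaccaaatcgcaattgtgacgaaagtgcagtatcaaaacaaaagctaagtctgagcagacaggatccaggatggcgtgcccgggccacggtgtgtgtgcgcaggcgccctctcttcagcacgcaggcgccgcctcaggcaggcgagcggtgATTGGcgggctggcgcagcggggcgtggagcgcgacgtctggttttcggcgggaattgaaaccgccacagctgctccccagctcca
Over the 33 members with a promoter entry, 5 (15.2%) held an E2F word (Brca2, Bard1, Msh6, Chek2 and Xrcc6), against 2.3% of the 27025 promoters of the table. A CHR word stood in 3 (9.1%) of the members against 19.4% of all, and CCAAT in 19 (57.6%) against 37.9%. The other 8 members have no entry (Xrcc2, Fancd2, Exo1, Wrn, Nbn, Rad50, Polb and Xpc). A match is a description of letters in this window and no measure of binding.

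The genes of mismatch repair and end resection were Msh6, Pms2 and Exo1. Pms2, a nuclease subunit of mismatch repair, stood at 8.47 and 6.56 CPM in dNdK and 6.04, 8.79, 6.14 and 8.12 CPM in Rosa26 aorta. In muscle it stood at 15.4, 20.4 and 12.9 CPM in dNdK and 22.4, 11.3, 13.03 and 23.1 CPM in Rosa26, above each aorta library. It was 2.40-fold lower in Rosa26 aorta (log2 fold change -1.26, SE 0.30, edgeR adjusted p = 0.00414), with -1.10 in dNdK mice (edgeR adjusted p = 0.0765) and -0.37 under plain library sizes (edgeR adjusted p = 0.276). Msh6, which reads single mismatches, stood at 4.24 and 7.61 CPM in dNdK and 7.66, 9.44, 5.51 and 3.84 CPM in Rosa26 aorta. Its log2 fold change of aorta over muscle was 0.05 in dNdK and 0.64 in Rosa26 mice, past the threshold in neither, and with plain library sizes the Rosa26 value was 1.53 (edgeR adjusted p = 0.00518). Exo1, the exonuclease that lengthens resected ends, had 1 and 0 counts in dNdK and 1, 8, 0 and 0 counts in Rosa26 aorta, and 2 counts in all muscle libraries together, both in muscle dNdK 1.

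Wrn and Blm encode RecQ helicases, which unwind forked and G-rich structures, and Wrn is the gene lost in Werner syndrome, a disease of early ageing in humans. Wrn (chr8:33234372-33385543) stood at 11.4 and 10.1 CPM in dNdK and 10.5, 10.5, 4.04 and 6.41 CPM in Rosa26 aorta. Muscle libraries had 2.14, 5.26 and 6.31 CPM in dNdK and 1.68, 3.55, 4.21 and 2.52 CPM in Rosa26. The dNdK aorta libraries and aorta Rosa26 1 and 2 were alike, while aorta Rosa26 3, at 4.04 CPM, lay below the highest muscle libraries. Wrn was 2.59-fold higher in Rosa26 aorta (log2 fold change 1.37, SE 0.41, edgeR adjusted p = 0.0144), and the value in dNdK mice was 1.22 (SE 0.48, edgeR adjusted p = 0.129). Without aorta Rosa26 1 and 2, which held heart RNA, the Rosa26 value was 0.72 (edgeR adjusted p = 0.231). The aorta libraries kept, Rosa26 3 and 4, also had the most unmapped reads (7.21% and 7.45%), and the part of either was not tested. Blm stood at 3.31 and 3.24 CPM in dNdK and 3.46, 3.46, 1.88 and 2.13 CPM in Rosa26 aorta, with log2 fold changes of aorta over muscle of -0.02 in dNdK and -0.32 in Rosa26 mice, past the threshold in neither.

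Replication protein A is a trimer of RPA1, RPA2 and RPA3, and its 3 genes did not move together between tissues. Rpa1, the large subunit that makes most contacts with DNA, stood at 70.6 and 82.02 CPM in dNdK and 81.98, 76.5, 80.2 and 96.3 CPM in Rosa26 aorta. The muscle levels were 237, 242 and 179 CPM in dNdK and 349.5, 265, 253 and 278 CPM in Rosa26. Every aorta library lay well below every muscle library, and Rpa1 was 3.41-fold lower in Rosa26 aorta (log2 fold change -1.77, SE 0.18, edgeR adjusted p = 1.61e-05) and 2.86-fold lower in dNdK aorta (edgeR adjusted p = 0.0251). Rpa1 (chr11:75300259-75348454) overlaps the measured gene Smyd4.

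Rpa2, the middle subunit that checkpoint kinases phosphorylate after damage, stood at 5.16 and 7.31 CPM in dNdK and 8.18, 5.93, 9.76 and 7.26 CPM in Rosa26 aorta. In muscle it stood at 35.98, 42.8 and 27.9 CPM in dNdK and 59.02, 33.4, 38.1 and 50.7 CPM in Rosa26. The tissues again did not overlap, with a 5.78-fold lower level in Rosa26 aorta (log2 fold change -2.53, SE 0.26, edgeR adjusted p = 1.68e-05) and a 5.65-fold lower level in dNdK aorta (edgeR adjusted p = 0.00989).

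Rpa3, the small subunit that holds the trimer together, went the other way. It stood at 24.2 and 27.4 CPM in dNdK and 19.6, 18.3, 8.44 and 16.02 CPM in Rosa26 aorta, against 3.89, 10.2 and 11.3 CPM in dNdK and 8.22, 10.1, 10.97 and 6.92 CPM in Rosa26 muscle. Aorta Rosa26 3 lay among the muscle libraries and the other 5 aorta libraries above all of them. Rpa3 was 1.71-fold higher in Rosa26 aorta (log2 fold change 0.78, SE 0.30, edgeR adjusted p = 0.0435), a call that held in 5 of 17 alternative fits, with adjusted p from 0.000898 to 0.406. With the numbers of the deposited names as a block, which pair an aorta and a muscle library, the adjusted p of Rpa3 was 0.0873. In dNdK mice the log2 fold change was 1.60 (SE 0.45, edgeR adjusted p = 0.0609). Both dNdK aorta libraries were above the 4 Rosa26 aorta libraries, with a log2 fold change of 0.72 (SE 0.34, unadjusted p = 0.0661, edgeR adjusted p = 0.757). The difference between the genotype effects of the tissues, aorta minus muscle, was 0.81 (SE 0.54, edgeR adjusted p = 0.673).

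Ratios of counts within a library do not depend on how libraries are scaled. These pairs were picked after their values were seen and are given as a description. The ratio of Rpa1 to Rpa3 counts was 2.92 and 2.997 in dNdK and 4.18, 4.18, 9.50 and 6.01 in Rosa26 aorta, against 60.9, 23.9 and 15.9 in dNdK and 42.5, 26.2, 23.1 and 40.1 in Rosa26 muscle. The ratio of Rpa1 to Rpa2 was 13.7 and 11.2 in dNdK and 10.03, 12.9, 8.21 and 13.3 in Rosa26 aorta, against 6.58, 5.67 and 6.42 in dNdK and 5.92, 7.92, 6.65 and 5.48 in Rosa26 muscle. Neither ratio overlapped between tissues.

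**Figure D4:**
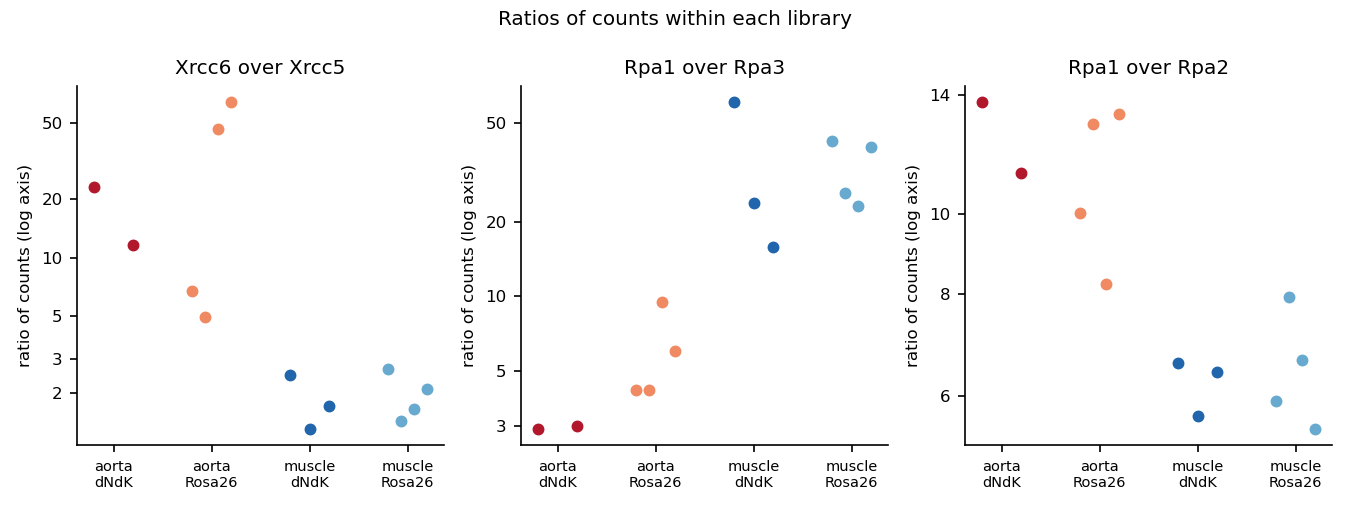
Ratios of the counts of 2 repair genes within each library, on log axes, for aorta and muscle of dNdK and Rosa26 mice. The ratio of Xrcc6 to Xrcc5 spans 4.90 to 63.7 in aorta and 1.30 to 2.65 in muscle, and the ratio of Rpa1 to Rpa3 spans 2.92 to 9.50 in aorta and 15.9 to 60.9 in muscle.

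The promoters of the 3 genes, from the same RefSeq table, are shown because the genes encode 1 complex and differed in direction, a choice made after their values were seen. Each holds CCAAT on 1 or the other strand and no E2F or CHR word. Rpa1 lies on the minus strand at chr11:75348334-75348633, Rpa2 on the plus strand at chr4:132768110-132768409 and Rpa3 on the minus strand at chr6:8259092-8259391.
Rpa1: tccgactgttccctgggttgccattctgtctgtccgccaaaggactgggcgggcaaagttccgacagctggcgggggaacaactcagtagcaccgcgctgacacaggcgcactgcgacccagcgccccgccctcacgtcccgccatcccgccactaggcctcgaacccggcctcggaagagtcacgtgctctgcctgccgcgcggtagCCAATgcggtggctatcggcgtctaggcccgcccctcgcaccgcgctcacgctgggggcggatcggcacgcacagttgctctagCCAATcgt
Rpa2: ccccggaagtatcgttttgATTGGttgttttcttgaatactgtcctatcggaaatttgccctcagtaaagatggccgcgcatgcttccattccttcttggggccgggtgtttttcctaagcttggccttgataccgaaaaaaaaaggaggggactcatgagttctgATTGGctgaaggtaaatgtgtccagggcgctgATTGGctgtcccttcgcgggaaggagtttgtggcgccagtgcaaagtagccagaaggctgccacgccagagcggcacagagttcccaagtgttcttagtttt
Rpa3: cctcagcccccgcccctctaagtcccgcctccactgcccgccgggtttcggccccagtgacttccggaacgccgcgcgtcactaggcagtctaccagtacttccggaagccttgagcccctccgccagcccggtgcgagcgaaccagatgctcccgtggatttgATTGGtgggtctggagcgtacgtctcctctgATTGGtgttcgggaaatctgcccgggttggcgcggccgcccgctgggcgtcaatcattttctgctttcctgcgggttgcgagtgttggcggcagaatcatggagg

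Damage sensing and checkpoint signalling was covered by 7 genes. Of these, 5 were tested between Rosa26 tissues and Trp53bp1 alone passed (20%, against 58.4% of all genes). Trp53bp1, the 53BP1 protein that shields broken ends from resection, stood at 12.1 and 16.7 CPM in dNdK and 16.6, 15.7, 18.3 and 11.7 CPM in Rosa26 aorta, against 29.6, 31.9 and 24.9 CPM in dNdK and 37.9, 26.9, 23.9 and 32.3 CPM in Rosa26 muscle. It was 1.92-fold lower in Rosa26 aorta without overlap (log2 fold change -0.94, SE 0.22, edgeR adjusted p = 0.0045), and under plain library sizes the value was -0.05 (edgeR adjusted p = 0.866). The gene overlaps Map1a and Tubgcp4.

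Atm and Atr encode the kinases that answer double-strand breaks and exposed single strands. Atr stood at 14.1 and 11.8 CPM in dNdK and 11.9, 10.8, 11.3 and 13.03 CPM in Rosa26 aorta, against 7.97, 5.49 and 9.22 CPM in dNdK and 7.47, 8.89, 8.82 and 4.40 CPM in Rosa26 muscle. All aorta libraries lay above all muscle libraries, yet Atr just missed the threshold (log2 fold change 0.66, SE 0.27, edgeR adjusted p = 0.0518 in Rosa26). Atm stood at 9.94 and 11.3 CPM in dNdK and 10.8, 13.4, 11.1 and 7.26 CPM in Rosa26 aorta, with log2 fold changes of aorta over muscle of -0.12 in dNdK and -0.30 in Rosa26 mice. Nbn and Rad50 belong to the MRN complex that tethers and trims ends. Nbn stood at 32.2 and 30.98 CPM in dNdK and 37.6, 25.04, 34.9 and 26.5 CPM in Rosa26 aorta, and at 45.3, 37.1 and 31.1 CPM in dNdK and 36.98, 33.9, 33.99 and 36.3 CPM in Rosa26 muscle. The genotypes overlapped within each tissue and the tissues within each genotype. The log2 fold change of Nbn in dNdK over Rosa26 was 0.02 (SE 0.26) in aorta and 0.12 (SE 0.20) in muscle. Rad50 had log2 fold changes of aorta over muscle of -0.25 in dNdK and -0.06 in Rosa26 mice, and of dNdK over Rosa26 muscle of 0.45 (SE 0.27, unadjusted p = 0.136).

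Chek1 and Chek2 encode the effector kinases downstream of Atr and Atm. Chek1 had 6 and 5 counts in dNdK and 26, 27, 8 and 2 counts in Rosa26 aorta, and 14, 8 and 9 counts in dNdK and 6, 7, 8 and 2 counts in Rosa26 muscle. Its dNdK over Rosa26 value in aorta was -1.28 (SE 0.84, edgeR adjusted p = 0.757). Chek1 passed the count filter in aorta through its Rosa26 libraries alone. Chek2 had 11 and 20 counts in dNdK and 22, 30, 19 and 0 counts in Rosa26 aorta, and 3, 3 and 8 counts in dNdK and 0, 2, 0 and 0 counts in Rosa26 muscle. Its pooled level in Rosa26 aorta was 22.7-fold that in Rosa26 muscle (95% counting interval 6.06 to 191), and in muscle its dNdK to Rosa26 ratio was 8.63 (1.98 to 78.2). These intervals cover counting error only.

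Of the repair genes with enough counts for the test, the end joining gene Xrcc5 had the largest fold difference between tissues in both genotypes. Xrcc5 (Ku80, chr1:72307417-72394953) stood at 4.51 and 4.52 CPM in dNdK and 6.11, 8.35, 2.93 and 1.28 CPM in Rosa26 aorta. Muscle libraries had 35.4, 38.2 and 30.04 CPM in dNdK and 36.2, 31.4, 35.6 and 30.2 CPM in Rosa26. The highest aorta library was 8.35 CPM and the lowest muscle library 30.04 CPM. Xrcc5 was 6.83-fold lower in Rosa26 aorta (log2 fold change -2.77, SE 0.44, edgeR adjusted p = 0.000359) and 7.58-fold lower in dNdK aorta (log2 fold change -2.92, SE 0.30, edgeR adjusted p = 0.00436). It was called in all 17 alternative fits of the Rosa26 tissues, with log2 fold changes from -3.89 to -1.86.

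Xrcc6 (Ku70), which forms the ring with Ku80, did not follow. It stood at 105 and 52.6 CPM in dNdK and 41.1, 40.9, 136 and 81.6 CPM in Rosa26 aorta, and at 87.3, 49.6 and 51.1 CPM in dNdK and 96.01, 44.8, 58.3 and 63.2 CPM in Rosa26 muscle. The tissues overlapped, with a log2 fold change of aorta over muscle of 0.34 (SE 0.42) in dNdK and 0.20 (SE 0.40) in Rosa26 mice. The ratio of Xrcc6 to Xrcc5 counts was 23.3 and 11.6 in dNdK and 6.72, 4.90, 46.5 and 63.7 in Rosa26 aorta, against 2.47, 1.30 and 1.70 in dNdK and 2.65, 1.42, 1.64 and 2.10 in Rosa26 muscle. Within Rosa26 aorta the libraries split, since Xrcc5 was lowest and Xrcc6 highest in aorta Rosa26 3 and 4. Those libraries had 7.21% and 7.45% of reads unmapped and no heart RNA, while aorta Rosa26 1 and 2 had 5.62% and 5.28% unmapped and did hold heart RNA, and the part of either in these levels was not tested. Xrcc6 overlaps the measured gene Desi1.

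Lig4 and Xrcc4 encode the ligase that closes the joined ends and its partner. Lig4 stood at 6.91 and 7.61 CPM in dNdK and 6.41, 10.7, 1.88 and 4.91 CPM in Rosa26 aorta, against 6.22, 14.5 and 13.01 CPM in dNdK and 8.78, 10.8, 12.7 and 11.2 CPM in Rosa26 muscle, with log2 fold changes of aorta over muscle of -0.63 in dNdK and -0.85 in Rosa26 mice, past the threshold in neither. With the numbers of the deposited names as a block the Rosa26 value of Lig4 was -1.44 (edgeR adjusted p = 0.011). Without aorta Rosa26 1 and 2, which held heart RNA, it was -1.81 (edgeR adjusted p = 0.00644). The aorta libraries kept, Rosa26 3 and 4, also had the most unmapped reads. Xrcc4 stood at 4.88 and 2.56 CPM in dNdK and 2.14, 1.81, 1.67 and 0.854 CPM in Rosa26 aorta. Both dNdK aorta libraries were the higher ones, by a log2 fold change of 1.16 (SE 0.52, unadjusted p = 0.0542, edgeR adjusted p = 0.757). In muscle it ranged from 1.95 to 9.15 CPM in dNdK and from 0.934 to 8.89 CPM in Rosa26, the widest spread of any repair gene with a mean of 30 counts in Rosa26 muscle (coefficient of variation 99.2%).

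In base excision and single-strand break repair, 4 of the 8 genes tested passed between Rosa26 tissues (50%, against 58.4% of all genes). Polb, the polymerase that fills the excised gap, stood at 16.9 and 21.5 CPM in dNdK and 21.2, 17.3, 13.1 and 16.02 CPM in Rosa26 aorta. The muscle levels were 35.8, 49.4 and 41.6 CPM in dNdK and 48.6, 54.9, 47.9 and 44.8 CPM in Rosa26. It was 2.89-fold lower in Rosa26 aorta (log2 fold change -1.53, SE 0.20, edgeR adjusted p = 8.69e-05) and 2.19-fold lower in dNdK aorta (edgeR adjusted p = 0.044), with no overlap between tissues.

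Lig3, the ligase that seals the nick with XRCC1 and the main DNA ligase of mitochondria, stood at 1.84 and 5.28 CPM in dNdK and 4.86, 7.36, 5.37 and 8.76 CPM in Rosa26 aorta, against 15.2, 16.9 and 14.7 CPM in dNdK and 26.7, 14.2, 18.03 and 22.9 CPM in Rosa26 muscle. All aorta libraries lay below all muscle libraries. It was 3.13-fold lower in Rosa26 aorta (log2 fold change -1.65, SE 0.28, edgeR adjusted p = 0.000621) and 4.32-fold lower in dNdK aorta (edgeR adjusted p = 0.0394). Xrcc1, the scaffold that binds the ligase, stood at 13.4 and 21.9 CPM in dNdK and 16.3, 16.5, 20.9 and 28.6 CPM in Rosa26 aorta, and at 42.2, 20.2 and 25.3 CPM in dNdK and 27.1, 21.8, 18.4 and 40.5 CPM in Rosa26 muscle. Its groups overlapped, with log2 fold changes of aorta over muscle of -0.71 in dNdK and -0.40 in Rosa26 mice, and of dNdK over Rosa26 of -0.21 (SE 0.33) in aorta and 0.14 (SE 0.35) in muscle. Lig3 overlaps the measured gene Rffl.

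Ung, the glycosylase that removes uracil from DNA, stood at 1.93 and 1.13 CPM in dNdK and 3.46, 5.49, 3.56 and 3.20 CPM in Rosa26 aorta. In muscle it stood at 7.39, 13.6 and 2.996 CPM in dNdK and 12.1, 8.22, 14.9 and 11.6 CPM in Rosa26. Ung was 2.94-fold lower in Rosa26 aorta (log2 fold change -1.56, SE 0.30, edgeR adjusted p = 0.00122), a call lost under plain library sizes (-0.66, edgeR adjusted p = 0.0872). Both dNdK aorta libraries lay below the Rosa26 ones, with a log2 fold change of -1.37 (SE 0.49, unadjusted p = 0.0236, edgeR adjusted p = 0.757). Ung shares its locus with the measured gene Alkbh2.

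Parp1, the main sensor of single-strand breaks, stood at 64.7 and 64 CPM in dNdK and 67.2, 72.6, 51.9 and 74.1 CPM in Rosa26 aorta, against 116, 121 and 92.7 CPM in dNdK and 142, 121, 112 and 122 CPM in Rosa26 muscle. It was 1.87-fold lower in Rosa26 aorta (log2 fold change -0.90, SE 0.18, edgeR adjusted p = 0.00137), while under plain library sizes the value was -0.03. Parp2, its relative, stood at 7.37 and 11.01 CPM in dNdK and 9.06, 15.1, 8.58 and 8.97 CPM in Rosa26 aorta, with log2 fold changes of aorta over muscle of -0.36 in dNdK and 0.30 in Rosa26 mice, past the threshold in neither. Its dNdK over Rosa26 value in muscle was 0.50 (SE 0.31, unadjusted p = 0.139).

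Apex1, the endonuclease that cuts at the bare sugar left by a glycosylase, stood at 6.35 and 4.98 CPM in dNdK and 2.95, 3.73, 2.30 and 3.84 CPM in Rosa26 aorta. Both dNdK libraries were above the Rosa26 ones (log2 fold change 0.83, SE 0.39, unadjusted p = 0.0647, edgeR adjusted p = 0.757). The difference of Rosa26 aorta from Rosa26 muscle, at 5.79, 4.67, 5.98 and 4.02 CPM, just missed the threshold (log2 fold change -0.68, edgeR adjusted p = 0.0788). Ogg1, the glycosylase for oxidised guanine, ranged from 10.6 to 11.5 CPM in dNdK and 6.55 to 11.96 CPM in Rosa26 aorta, and from 6.42 to 13.7 CPM in dNdK and 7.74 to 12.9 CPM in Rosa26 muscle, with no difference past the threshold.

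Nucleotide excision held 5 genes, 1 of which passed between Rosa26 tissues (20%, against 58.4% of all genes). Ercc2 (XPD), a helicase of the transcription factor TFIIH that opens DNA around the lesion, stood at 9.30 and 11.7 CPM in dNdK and 12.5, 12.2, 6.55 and 5.98 CPM in Rosa26 aorta, against 12.4, 17.8 and 14.6 CPM in dNdK and 14.8, 19.9, 18.5 and 26.4 CPM in Rosa26 muscle. It was 2.11-fold lower in Rosa26 aorta (log2 fold change -1.08, SE 0.31, edgeR adjusted p = 0.0122), with -0.18 under plain library sizes (edgeR adjusted p = 0.636). Aorta Rosa26 3 and 4, which had the most unmapped reads, were lower than aorta Rosa26 1 and 2, which held heart RNA. Without aorta Rosa26 1 and 2 the Rosa26 value was -1.70, and the part of either was not tested. Ercc2 overlaps the measured gene Klc3.

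The other 4 excision genes had no difference past the threshold in any comparison with TMM scaling. Ercc1, which cuts on the far side of the lesion together with XPF, varied least among the Rosa26 aorta libraries of all repair genes with a mean of 30 counts, at 21.8, 21.5, 19.4 and 19.01 CPM (coefficient of variation 6.89%). Xpc, which finds distorted DNA, stood at 20.9 and 18.3 CPM in dNdK and 19.5, 13.4, 29.3 and 25.4 CPM in Rosa26 aorta, and at 38.9, 21.4 and 18.3 CPM in dNdK and 27.6, 15.8, 17.6 and 34.3 CPM in Rosa26 muscle. In aorta Rosa26 3 and 4 and muscle Rosa26 1 and 4, Xpc, Xrcc1 and Xrcc6 exceeded the other Rosa26 libraries of the tissue. Wrn and Rpa3 went the other way. The genes were picked after their values were seen, and the share of all genes with either pattern was not computed. Aorta Rosa26 3 and muscle Rosa26 1 share a number in the deposited names, as do aorta and muscle Rosa26 4. The labels do not call such numbers animals, and a shared animal and library quality cannot be told apart. Ercc6 (CSB), which acts where a polymerase stalls on damage, ranged from 9.42 to 9.85 CPM in dNdK and 3.416 to 12.6 CPM in Rosa26 aorta, and from 9.33 to 11.8 CPM in dNdK and 6.35 to 15.5 CPM in Rosa26 muscle. Xpa, which checks the opened lesion, had 25 and 39 counts in dNdK aorta and 0 to 32 counts in the other libraries.

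The genotype effect was also compared between tissues. Of 37 repair genes tested, 0 differed in their dNdK over Rosa26 value between aorta and muscle, against 0% of all 12318 genes, and 0 had an unadjusted p under 0.05, against 8.48% of all genes, and DESeq2 called 0 of the repair genes. The smallest adjusted p was 0.594, for Chek1, with a difference of -2.21 (SE 1.09) on the log2 scale. The median SE over these 37 genes was 0.53. With the numbers of the deposited names as a block, 206 of all genes and 0 repair genes differed.

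Of the 41 genes, 10 were too low in muscle for the test, namely Rad51ap1, Brca1, Bard1, Xrcc3, Fanca, Fancd2, Fanci, Exo1, Chek1 and Chek2. In aorta only Xrcc3, Fancd2, Fanci and Exo1 fell under the filter. The summed level of the 10 was 3.50 and 3.77 CPM in dNdK aorta and 8.77, 9.28, 7.74 and 1.71 CPM in Rosa26 aorta. In muscle it was 7.001, 2.22 and 1.97 CPM in dNdK and 2.06, 1.89, 1.959 and 0.880 CPM in Rosa26. High sums thus stood in aorta Rosa26 1, 2 and 3 and in muscle dNdK 1.

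The summed level of 14 proliferation markers was high in those 4 libraries too. It was 10.7 and 6.79 CPM in dNdK aorta and 38.0, 72.0, 35.9 and 9.82 CPM in Rosa26 aorta, and 63.4, 3.86 and 8.52 CPM in dNdK and 5.60, 11.2, 6.76 and 4.78 CPM in Rosa26 muscle. The summed level of 10 B and plasma cell markers was 68.9 and 29.5 CPM in dNdK aorta and 164, 460.1, 178 and 12.6 CPM in Rosa26 aorta. In muscle it was 179.5 CPM in dNdK 1, 4.67 and 17.0 CPM in the other dNdK libraries and 3.395 to 29.4 CPM in Rosa26. Of these 10 B cell genes, 1 was at 0 in both dNdK aorta libraries and 0 were at 0 throughout Rosa26 aorta. T and NK cell markers summed to 20.7 and 15.2 CPM in dNdK aorta and 84.9, 152.3, 32.8 and 10.04 CPM in Rosa26 aorta. In muscle their sum was 21.8, 2.22 and 11.9 CPM in dNdK and 1.635 to 8.997 CPM in Rosa26. Macrophage markers summed to 281 and 224 CPM in dNdK aorta and 584, 539, 456 and 288 CPM in Rosa26 aorta. In muscle their sum was 282, 125 and 199.5 CPM in dNdK and 88.4 to 207.5 CPM in Rosa26. The part of dividing or immune cells in the levels of the 10 repair genes was not tested.

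**Figure D5:**
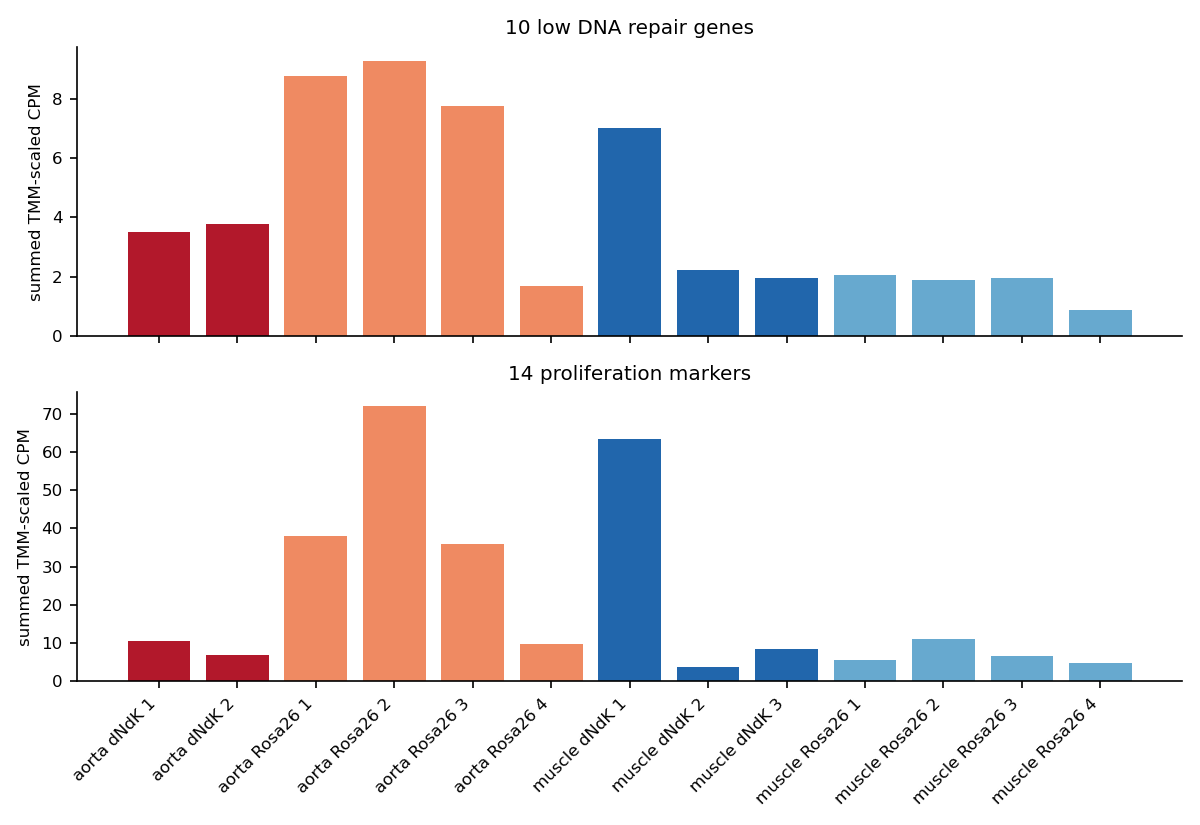
Summed TMM-scaled CPM in each library of the 10 DNA repair genes that were low in muscle (upper panel) and of 14 proliferation markers (lower panel). Aorta Rosa26 1, 2 and 3 and muscle dNdK 1 are the 4 highest libraries in both panels.

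Another 112 repair genes, listed by pathway, were measured beside these 41. Between tissues of Rosa26 mice 92 were tested and 36 passed (39.1%, against 58.4% of all genes), 12 higher and 24 lower in aorta, and in dNdK mice 6 of 92 passed (6.52%, against 15.8% of all genes), 1 higher and 5 lower. Between genotypes 0 of 100 passed in aorta and 0 of 90 in muscle, with 2 in aorta (2%, against 5.98% of all genes) and 3 in muscle (3.33%, against 7.55%) at an unadjusted p under 0.05. The clearest of the higher ones was Paxx, a factor that steadies Ku on DNA ends, at 38.7 and 39.6 CPM in dNdK and 28.1, 30.03, 28.2 and 39.9 CPM in Rosa26 aorta, against 9.92, 6.66 and 11.98 CPM in dNdK and 4.30, 6.33, 4.996 and 4.53 CPM in Rosa26 muscle. Its log2 fold change of aorta over muscle was 2.63 (SE 0.23, edgeR adjusted p = 5.95e-06) in Rosa26 and 2.04 (edgeR adjusted p = 0.0133) in dNdK mice, opposite in sign to that of Xrcc5. Faap20, of the Fanconi core complex, and Neil2, a glycosylase for oxidised bases, were also higher in Rosa26 aorta (log2 fold change 3.06 and 4.39). Rad23b, a partner of XPC, and Rev3l, the catalytic subunit of a translesion polymerase, were lower (log2 fold change -1.64 and -2.01).

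Of these other genes, Swi5 and Poll had log2 fold changes of dNdK over Rosa26 among the smaller p-values in aorta (Swi5 0.67, unadjusted p = 0.0147, and Poll -0.76, unadjusted p = 0.0514). In muscle the smallest p-values belonged to Faap20 (1.36, unadjusted p = 0.0148), Paxx (0.94, unadjusted p = 0.0154) and Polm (-1.49, unadjusted p = 0.0386), none past the adjusted threshold. Faap20 and Paxx, high in aorta, were highest among muscle libraries in muscle dNdK 3, the library that also held fat RNA, and the part of that RNA was not tested.

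The repair genes varied among libraries of a group about as much as other genes. Over the 28 members with a mean of at least 30 counts in Rosa26 aorta, the median coefficient of variation was 27.1%, against 27.3% over all such genes, and in Rosa26 muscle it was 23.4% over 27 members, against 20.7%. In Rosa26 aorta Xrcc5 varied most (67.9%), and in Rosa26 muscle Nbn varied least (4.52%).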

How the data were processed

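Total RNA was reverse transcribed, amplified with a primer pool of the mouse transcriptome and read on an Ion Torrent sequencer, per the labels' protocols. The deposited values are raw counts of reads per gene, and the authors aligned and counted with STAR 2.5.2b on mm10 (GRCm38.p6), per the submitters' processing notes, which also name edgeR 3.28.1 and limma 3.42.2. The counts without regard to strand were used, since 46.34% to 49.33% of reads lay on the first strand. The 4 lines of totals in each table stayed out. Reads carry no molecular identifiers, so intervals and floors cover counting error only.

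In R 4.3.3, each comparison was fitted alone with edgeR 4.0.16 (filterByExpr at min.count 10, TMM, quasi-likelihood test), with p-values adjusted over the whole table of genes kept. The procedure was tested on simulated data. SE is the fold change divided by the root of F. DESeq2 1.42.0, other scalings, no filter, blocks and left-out libraries were alternatives.

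The members, the lists and the rule for named genes (members past the threshold or with the 5 smallest p-values, recombination and Fanconi genes, and Xrcc1, Brca2, Exo1 and Nbn) were chosen with earlier results of these data known. Some measured genes are not reported here. No 2 libraries agreed within sampling noise. Numbers in the deposited names are shared by 3 aorta and muscle pairs of Rosa26 and 1 of dNdK. The deviations of these pairs correlated at 0.309, 0.367, 0.298 and 0.168 over 9130 genes. Pairs without a shared number spanned -0.348 to 0.342 in Rosa26 and -0.168 to 0.154 in dNdK. Each aorta library with a shared number correlated most with the muscle library of that number. The next highest value was 0.308 for aorta Rosa26 1, 0.164 for aorta Rosa26 3 and 0.262 for aorta Rosa26 4. With 2 dNdK aorta libraries the deviations mirror each other, so the dNdK values are not independent. These values do not settle whether the shared numbers mark animals. A fit with these numbers as a block was run as an alternative. The fits reported are unpaired, and the labels do not call the pairs with a shared number animals. Numbers in the titles did not pair libraries.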

Additional observations from a re-analysis of the deposited data

Results flagged for a closer look

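A library of a Rosa26 group stood apart from the other 3 in 3 of 72 gene and group combinations, by the gap to the nearest library over the range of the group, a rule that chance meets in about 1 of 20 groups. Parp2 stood at 15.1 CPM in aorta Rosa26 2, against 8.58 to 9.06 CPM in the other Rosa26 aorta libraries. Ung stood at 5.49 CPM in aorta Rosa26 2, against 3.20 to 3.56 CPM in the others. Ercc6 stood at 6.35 CPM in muscle Rosa26 1, against 13.96 to 15.5 CPM in the others. Aorta Rosa26 2 also had the highest B and plasma cell sum, 460.1 CPM, and the highest T and NK cell sum, 152.3 CPM. The part of such cells in these levels was not tested.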

How the results depend on the processing

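Over the alternatives, 0 repair genes passed between genotypes in either tissue or in the difference between tissues, and 12 to 16 passed between tissues of Rosa26 mice. The cause of each change below was not tested. Of the 13 calls in Rosa26 tissues, Xrcc5, Rpa1, Rpa2, Lig3 and Polb held in all 17 alternatives, and Xrcc2, Pms2, Ung, Parp1, Trp53bp1 and Ercc2 lost the threshold with plain library sizes alone. The median of the repair genes in Rosa26 tissues was -0.81 without the libraries with heart RNA and 0.47 with plain library sizes. In dNdK tissues it was 0.25, and in the difference between tissues -0.25, with plain library sizes. With the unmapped share as a covariate, the median in aorta between genotypes was -0.30.

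Genes called between genotypes in aorta numbered 1, against 13 with DESeq2, 0 with all 13 libraries in 1 fit, 163 with the title number as a replicate block, 30 without heart RNA, 264 without Rosa26 1 and 2, 280 with the unmapped share, and 0 to 1 with single libraries left out. In muscle DESeq2 called 7, and single libraries left out gave 0 to 3, the 3 without muscle dNdK 1. In the difference between tissues DESeq2 called 6 and the replicate block on the deposited names 206. In dNdK tissues 1801 genes and 5 repair genes were called, against 3141 and 11 with DESeq2, 3334 and 11 with all 13 libraries, 3035 genes with the title block, 369 and 1 without heart RNA, 3 repair genes with plain library sizes, and 322 to 3126 genes and 1 to 11 repair genes with single libraries left out. The block on the deposited names could not be fitted in dNdK tissues. In Rosa26 tissues it called 13 repair genes, with Lig4 gained and Rpa3 lost, and the title block 12.

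Signs also turned. With plain library sizes in Rosa26 tissues Nbn, Rad50, Ogg1 and Xpc turned to 0.70, 0.83, 0.65 and 0.76 and passed the threshold (adjusted p from 0.0113 to 0.0483), and none of the other turned values given here passed it. In aorta between genotypes these were Xrcc2 (-0.0742 with the title block, -0.30 with the unmapped share, -0.19 to 0.50 with single libraries left out), Xrcc1 (0.0642, 0.32, -0.58 to 0.0863), Nbn (-0.12 with plain library sizes, -0.0523 to 0.14) and Brca2 (0.15 without Rosa26 1 and 2). In muscle, with single libraries left out, Xrcc2 spanned -0.13 to 0.0777, Xrcc1 -0.23 to 0.40, Brca2 -0.70 to 0.0486 and Nbn -0.042 to 0.23, and Xrcc2 was 0.0716 with plain library sizes. In Rosa26 tissues Brca2, Xrcc1 and Nbn were 0.85, 0.47 and 0.70 with plain library sizes, and Brca2 was 0.17 with the unmapped share and -0.46 to 0.16 with single libraries left out. In dNdK tissues Bard1 was -0.0603 with DESeq2, -0.69 without heart RNA and -0.69 to 0.49 with single libraries left out, and Nbn 0.36 with plain library sizes. In the difference between tissues Brca1 and Nbn were 1.91 and 0.17 with the block on the deposited names, Xrcc2 -0.069 with plain library sizes, and with single libraries left out Brca1 spanned -2.11 to 1.74, Bard1 -3.41 to 0.20, Xrcc2 -0.11 to 0.56, Xrcc1 -0.73 to 0.0359 and Nbn -0.17 to 0.0742. A fit that leaves 1 library in a group assumes that it varies like the others.

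At 3919526 to 13683952 counts per library, the 10 low genes had too few counts in muscle for the count test.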
